A study of Homo sapiens with 22 samples.

Results

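The genes described here encode 10 components of the TGF-β and activin pathway, and the data are the enriched chromatin regions that lay within 50 kb of their gene bodies in 3 human prostate cancer cell lines. They were taken from a given list of genes, and every region of the 22 deposited lists that fell inside these windows was counted. The windows held 34 of 24038 FOXA2 regions in vehicle-treated PC3 cells and 10 of 11886 in vehicle-treated NCI-H660 cells. Together they spanned 1583.8 kb, or 0.0512% of the genome, and over all lists they held 890 regions. PC3 cells were derived from a metastasis to bone and lack the androgen receptor, NCI-H660 comes from a neuroendocrine prostate cancer, and LNCaP is a luminal line that depends on the androgen receptor.

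FOXA2 is a forkhead pioneer factor, a protein that can bind its site in closed chromatin. JUN and FOSL1 are subunits of AP-1, a dimer that is activated by growth factor and stress signals. FOXA2 was mapped by ChIP-seq in PC3 cells given vehicle, 10 µM ORY-1001 or 0.5 µM C12 and in NCI-H660 cells given vehicle or 10 µM ORY-1001, each inhibitor for 4 h. Both compounds block the histone demethylase LSD1. JUN was mapped under a control siRNA (siNC) or one that targets FOXA2 (siFOXA2) in both of these lines, and FOSL1 likewise in PC3 cells. JUN in LNCaP cells was mapped under siNC, under an siRNA against FOXA1 (siFOXA1), with FOXA2 overexpression (FOXA2OE) and in cells titled FOXA2K265R, a name that denotes a lysine-to-arginine change and whose cell line label reads FOXA2OE. FOXA2 was also mapped in the FOXA2OE cells, and 2 further FOXA2 ChIPs of vehicle PC3 cells had no labelled antibody and are called the other FOXA2 ChIPs. Accessible chromatin (ATAC-seq) was mapped in PC3 and NCI-H660 cells, the active mark H3K27ac in PC3 and the promoter and enhancer mark H3K4me2 in NCI-H660. These lists are titled vehicle, as are those of FOXA2OE and FOXA2K265R cells. Region identifiers of the H3K27ac list and of both ATAC lists name a control siRNA, and the titles were followed. Each condition had 1 list, so no difference below has a replicate check or a p-value, and the depth behind the lists is unknown.

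In this pathway a dimeric ligand brings together type II and type I receptor kinases, which phosphorylate SMAD2 and SMAD3. These move to the nucleus with SMAD4 and act on genes together with other factors, AP-1 among them. TGFB1 and TGFB2 are TGF-β ligands, and INHBA encodes the subunit of activin A. TGFBR2 and TGFBR1 are the type II and type I TGF-β receptors, and BAMBI is a decoy that resembles a type I receptor but lacks its kinase domain. SMAD7 is the inhibitory SMAD that blocks the receptor, and SKIL and TGIF1 are corepressors that hold SMAD complexes back. In carcinoma cells the pathway is best known for driving epithelial-mesenchymal transition.

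All 10 genes had an accessible promoter in both lines, marked by H3K27ac in PC3 and by H3K4me2 in NCI-H660. The same share over all promoters is not given here, but such regions were common. Within 50 kb, 99.1% of all genes had an accessible region and 92.5% an H3K27ac region in PC3. In NCI-H660, 95.9% had an accessible region and 94.7% an H3K4me2 region. The promoter of CHGA, a neuroendocrine marker, was accessible in NCI-H660 and not in PC3. INSM1, a neuroendocrine transcription factor, had an accessible promoter in both lines but no H3K27ac in PC3, and SYP, which encodes synaptophysin, was accessible and marked in both. The promoter of KLK3, the gene of PSA, had no region in any list, those of LNCaP included.

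The stretches of sequence given here show where the factors sat near these genes, each covering the 100 bases on either side of the centre of a region. Capitals mark forkhead letters (TGTTTAC or TGTTTGC or TATTTAC or TATTTGC) and AP-1 letters (TGAGTCA or TGACTCA), read on both strands, and where matches overlap their capitals run together. The first 2 are the highest-scoring PC3 FOXA2 regions with JUN at a receptor and at a ligand, the next is the highest-scoring NCI-H660 FOXA2 region at that ligand, and the last 2 were bound by FOXA2 in both lines. All are on the plus strand of GRCh37 (hg19).
TGFBR2 promoter, chr3:30647698-30647897: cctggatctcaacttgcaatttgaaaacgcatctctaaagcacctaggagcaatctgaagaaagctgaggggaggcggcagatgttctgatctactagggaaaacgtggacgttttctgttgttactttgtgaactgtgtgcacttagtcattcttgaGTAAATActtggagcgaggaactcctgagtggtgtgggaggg
TGFB2 intron, chr1:218550682-218550881: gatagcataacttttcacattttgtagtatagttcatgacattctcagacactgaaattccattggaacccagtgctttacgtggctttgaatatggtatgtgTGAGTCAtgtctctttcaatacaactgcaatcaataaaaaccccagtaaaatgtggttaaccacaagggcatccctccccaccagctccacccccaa
TGFB2 intron in NCI-H660, chr1:218575727-218575926: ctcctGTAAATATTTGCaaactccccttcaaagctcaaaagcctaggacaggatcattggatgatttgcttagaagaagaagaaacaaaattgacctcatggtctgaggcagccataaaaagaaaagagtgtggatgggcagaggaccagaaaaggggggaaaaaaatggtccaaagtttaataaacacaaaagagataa
SMAD7 intron, chr18:46472969-46473168: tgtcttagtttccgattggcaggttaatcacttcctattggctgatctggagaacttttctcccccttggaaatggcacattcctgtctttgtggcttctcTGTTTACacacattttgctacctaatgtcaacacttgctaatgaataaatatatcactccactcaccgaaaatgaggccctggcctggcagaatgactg
TGIF1 promoter, chr18:3449079-3449278: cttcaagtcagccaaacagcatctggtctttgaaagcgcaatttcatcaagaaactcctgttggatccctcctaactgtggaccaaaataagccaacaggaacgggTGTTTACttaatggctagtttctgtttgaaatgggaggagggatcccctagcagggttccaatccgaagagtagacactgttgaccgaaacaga

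In the TGFB2 intron bound in NCI-H660, 2 forkhead matches on opposite strands overlap. Over the 34 PC3 FOXA2 regions near the genes, 19 (55.9%) held forkhead letters within 100 bp of the centre, against 55.5% of all PC3 FOXA2 regions, and 10 (29.4%) held AP-1 letters, against 26.3%. The palindromic CRE letters TGACGTCA were in 1 of the 34 (2.94% against 0.137%). Both a forkhead and an AP-1 match were present in 5 of the 34 and neither in 10. In NCI-H660, 6 of the 10 FOXA2 regions (60%) held forkhead letters and 1 (10%) held AP-1 letters, against 59.2% and 6.29% of the whole list. The motif content of the FOXA2 regions at these genes was thus near that of the lists they came from, except for the single CRE match.

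**Figure D1:**
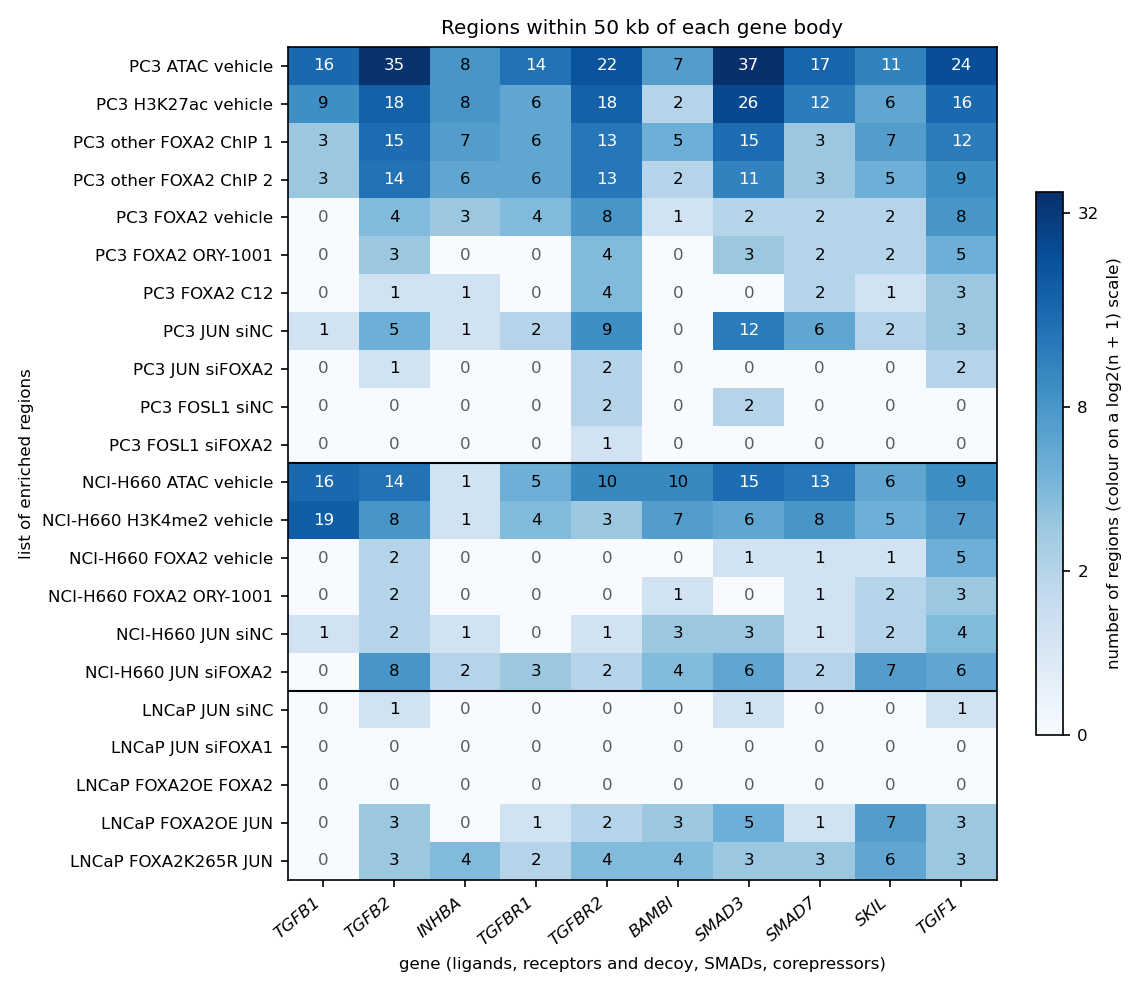
Number of enriched regions within 50 kb of each of the 10 gene bodies (columns) in each of the 22 lists (rows), with the number printed in each cell and the colour on a log2(n + 1) scale. FOXA2 in vehicle-treated PC3 cells was densest at TGFBR2 and TGIF1 with 8 regions each, and PC3 JUN at SMAD3 with 12.

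FOXA2 was found near more of these genes in PC3 than in NCI-H660 cells. At least 1 FOXA2 region lay within 50 kb of 9 of the 10 genes in PC3, where 54.1% of all 20136 protein-coding genes had one, and near 5 of the 10 in NCI-H660, where 37.6% did. The windows of these genes were longer than most (median 149.3 kb against 127.2 kb for all protein-coding genes), which by itself raises such a count. Near the genes the FOXA2 density was 21.5 regions per Mb in PC3 against 7.77 over the genome, and 6.31 against 3.84 in NCI-H660. The genome value covers its full length, stretches far from genes included. Open chromatin and marks were denser there too. In PC3 the values were 121 against 68.1 for ATAC and 76.4 against 29.2 for H3K27ac. In NCI-H660 they were 62.5 against 32.3 for ATAC and 42.9 against 22.7 for H3K4me2. The count in PC3 was 8 at TGFBR2, 8 at TGIF1, 4 at TGFB2, 4 at TGFBR1, 3 at INHBA, 2 each at SMAD3, SMAD7 and SKIL, 1 at BAMBI and 0 at TGFB1. In NCI-H660 it was 5 at TGIF1, 2 at TGFB2 and 1 each at SMAD3, SMAD7 and SKIL. INHBA, both receptor genes and BAMBI therefore had FOXA2 regions in vehicle-treated PC3 and none in vehicle-treated NCI-H660 cells.

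Of the 34 PC3 regions, 5 were also FOXA2 regions in NCI-H660 (14.7%, Wilson 95% interval 6.45 to 30.1, which covers counting error only), against 11.1% of the whole PC3 list. These were 3 in the window of TGIF1, 1 in that of SMAD7 and 1 in that of SKIL. Another 7 of the 34 lay in chromatin that was accessible in NCI-H660 without a FOXA2 region there, and the other 22 were not accessible in that line. In all, 12 of 34 (35.3%) were accessible in NCI-H660, against 22.6% of all PC3 FOXA2 regions. In the other direction 5 of the 10 NCI-H660 FOXA2 regions (50%) were accessible in PC3, against 35.2% of that list. The 2 other FOXA2 ChIPs of PC3 cells each contained 33 of the 34 regions (97.1%, against 92.5% and 90.8% of the whole list) and had 86 and 72 regions near the genes. Only in these longer lists did TGFB1 have FOXA2 regions, 3 in each.

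JUN was near 9 of the 10 genes in PC3 (62.8% of all genes) and near 9 of 10 in NCI-H660 (66.3%), with 41 and 18 regions. BAMBI was the gene without JUN in PC3 and TGFBR1 the one without it in NCI-H660. FOSL1 was near TGFBR2 and SMAD3 only, with 2 regions each (17.4% of all genes had one). Of the 41 PC3 JUN regions, 5 overlapped a JUN region of NCI-H660 (12.2%, 5.32 to 25.5, against 12.8% of the list), spread over 4 genes.

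In PC3, 15 of the 34 FOXA2 regions overlapped a JUN region (44.1%, 28.9 to 60.5), which was the share in the whole list (44.3%). The reverse share was 15 of 41 JUN regions (36.6% against 44.5%). Both FOXA2 and JUN lay mostly in open chromatin: 29 of 34 FOXA2 regions (85.3% against 89.3%) and 40 of 41 JUN regions (97.6% against 96%) were accessible. H3K27ac covered 18 of the 34 FOXA2 regions (52.9% against 58.7%) and 35 of the 41 JUN regions (85.4% against 77.3%). The mark was on 11 of the 15 FOXA2 regions with JUN and on 7 of the 19 without it, where the whole list had 78.6% and 42.9%. AP-1 letters were in 5 of the 15 and 5 of the 19, against 36.3% and 18.3%. FOSL1 overlapped 2 of the 34 FOXA2 regions (5.88% against 7.24%), both also with JUN and both at TGFBR2.

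In NCI-H660, 4 of the 10 FOXA2 regions overlapped JUN (40%, 16.8 to 68.7, against 36.4%), and 4 of the 18 JUN regions overlapped FOXA2 (22.2% against 23.2%). Accessible chromatin held 9 of the 10 FOXA2 regions (90% against 90.9%) and 17 of the 18 JUN regions (94.4% against 86%), and H3K4me2 was on 4 of the 10 FOXA2 regions (40% against 62.7%). The PC3 FOXA2, JUN and FOSL1 lists carry identifiers from 3 different processing folders, so for these overlaps the folder and the factor cannot be told apart.

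At the ligand genes, the 2 TGF-β genes were far apart. TGFB1 (chr19:41807492-41859827, minus strand) lies in a gene-dense stretch with 8 other protein-coding genes inside its window. It had no FOXA2 region in the vehicle or inhibitor lists of either line, while open chromatin covered 4.99% of its window in PC3 and 7.03% in NCI-H660 (2.08% and 2.07% of the genome). Its single JUN region in PC3, with a score of 106, lay in a UTR of the neighbour CCDC97 and held 2 AP-1 matches. The score is the caller's measure of confidence and ranks regions within a list.

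TGFB2 (chr1:218518678-218617961) had 4 FOXA2 regions in PC3 and 2 others in NCI-H660, with no overlap between the lines. The strongest in PC3 was the intronic region chr1:218550638-218550926, 32.1 kb from the gene start (upstream distances are given below as negative), with a score of 272 (top 27.2% of the list). It overlapped JUN regions with scores of 639 under siNC and 188 under siFOXA2, and it stayed on the list under ORY-1001 (136) but not under C12. The neighbouring intronic region at 35.2 kb did the opposite, with scores of 132 under vehicle and 55 under C12 and no region under ORY-1001. A FOXA2 region also covered the TGFB2 promoter in PC3 (111 under vehicle and 113 under ORY-1001), where NCI-H660 had open, H3K4me2-marked chromatin and no FOXA2. The NCI-H660 regions lay deeper in the gene, at 47.5 kb (120) and 57.1 kb (179), the latter with a JUN score of 27.

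INHBA (chr7:41706766-41745432, minus strand) had more accessible chromatin in PC3 than in NCI-H660. Open chromatin covered 2.3% of its window in PC3 and 0.616% in NCI-H660, against 2.08% and 2.07% of the genome. The window had 8 accessible and 8 H3K27ac regions in PC3, whereas NCI-H660 had 1 accessible and 1 H3K4me2 region, both at the promoter. The PC3 ATAC list was the longer one, with 210960 regions against 99959. The intronic FOXA2 region chr7:41735769-41736153, 9.5 kb from the gene start, had a score of 196 and overlapped JUN (96) and H3K27ac (585). It was called under C12 (72) and not under ORY-1001. The other 2 FOXA2 regions had low scores of 31 and 61, and the latter, at -3.9 kb, held the CRE letters and was found in no other list.

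**Figure D2:**
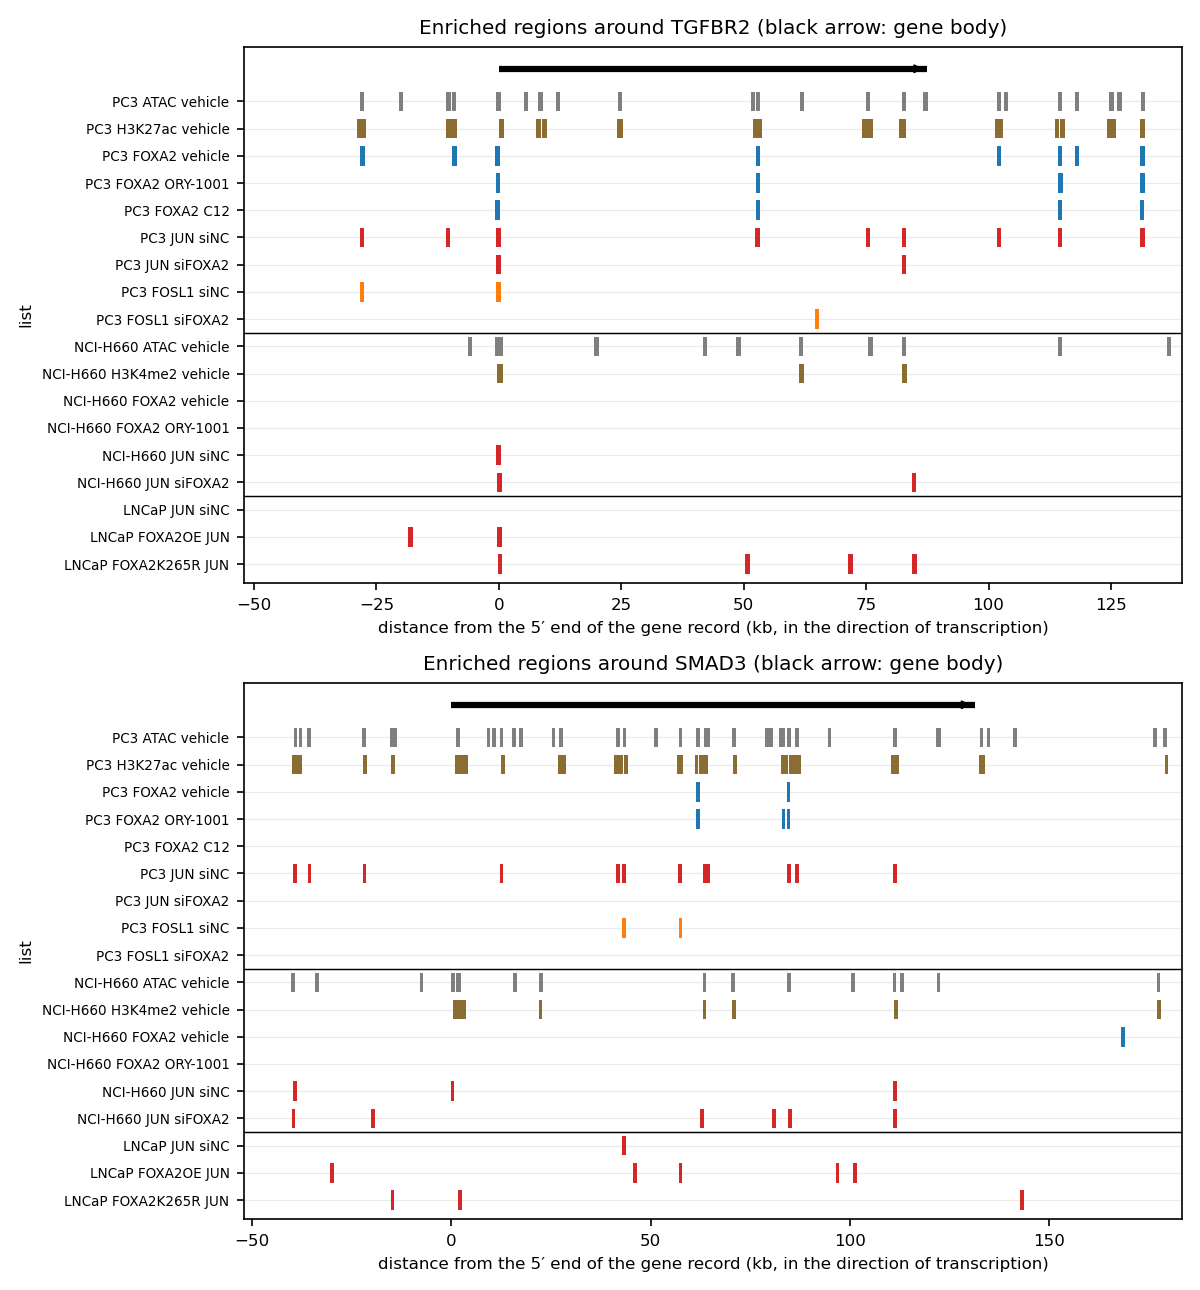
Enriched regions around TGFBR2 (top) and SMAD3 (bottom), 1 list per row, by distance in kb from the start of the gene record in the direction of transcription. Marks narrower than 0.9 kb are widened to that width for visibility, and black lines separate PC3, NCI-H660 and LNCaP. At TGFBR2 a single place at the promoter carried FOXA2, JUN and FOSL1 in PC3 and JUN in NCI-H660, FOXA2OE and FOXA2K265R cells, while the 12 JUN regions of SMAD3 were all absent after siFOXA2.

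At the receptor genes binding was concentrated on TGFBR2 (chr3:30648093-30735634). The promoter region chr3:30647558-30648038, centred at -0.3 kb, was called in 14 of the 22 lists. Its FOXA2 score was 544 under vehicle (top 9.86%), 590 under ORY-1001 and 434 under C12. The JUN score there was 1039 under siNC, rank 370 of 23890, and 392 under siFOXA2, and the FOSL1 score was 156 under siNC with no region under siFOXA2. In NCI-H660 the place had JUN regions (100 under siNC and 139 under siFOXA2) and no FOXA2 region, and the JUN list of FOXA2K265R cells had it at 202. The next 3 regions by score, at 52.9 kb in an intron (450), at 114.6 kb downstream (359) and at 131.4 kb in an intron of GADL1 (227), all overlapped JUN and were kept under both inhibitors. The 4 weakest, with scores from 17 to 68, were absent under both.

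TGFBR1 (chr9:101866320-101916474) had 4 FOXA2 regions in PC3 with scores of 57, 70, 172 and 218, and none was kept under either inhibitor. The strongest, chr9:101904473-101904909, overlapped a coding exon 38.4 kb into the gene, held the AP-1 letters TGACTCA and overlapped a weak JUN region (49) that was lost after siFOXA2. BAMBI (chr10:28966439-28971861) had less JUN and H3K27ac in PC3 than either receptor gene, and more JUN in NCI-H660. PC3 had 1 intronic FOXA2 region (95), no JUN and 2 H3K27ac regions, which covered 0.694% of the window against 2.19% of the genome. NCI-H660 had 10 accessible and 7 H3K4me2 regions there and 3 JUN regions. The strongest of those, chr10:28917466-28917849, lay at -48.8 kb with a score of 926 (top 2.36%) and AP-1 letters. It lay near the window edge, 5424 bp from WAC and farther from BAMBI. The regions at 4.7 kb and 45.0 kb scored 43 and 28.

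Among the SMAD genes, SMAD3 (chr15:67356101-67487511) had the most JUN regions in PC3 and 2 FOXA2 regions in the vehicle list. Its 12 JUN regions had scores from 17 to 591, and H3K27ac covered 8.9% of its window. In that list 1 of the 12, at 84.7 kb in an intron, overlapped FOXA2 (198, JUN 327), whereas the other FOXA2 ChIPs, with 15 and 11 regions at the gene, overlapped 7 and 5 of the 12. FOSL1 sat at 2 of the JUN regions, at 43.4 kb (67) and 57.4 kb (69), and the first was also the only LNCaP siNC JUN region at the gene. The highest-scoring FOXA2 region, chr15:67417820-67418124 (306), lay at the promoter of an internal transcript 61.9 kb into the gene, beside JUN regions at 63.7 and 64.4 kb without overlapping them. The only NCI-H660 FOXA2 region of this window, in an intron of AAGAB, had a score of 18 and was in no other list. SMAD7 (chr18:46446223-46477335, minus strand) had 2 FOXA2 regions in PC3, and neither of them overlapped any of its 6 JUN regions. The intronic region chr18:46472887-46473250 was a shared one. Its FOXA2 score was 461 in PC3 and 967 in NCI-H660, where it ranked in the top 1.78%, and it was kept under ORY-1001 in both lines (281 and 841) and under C12 in PC3 (82).

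**Figure D3:**
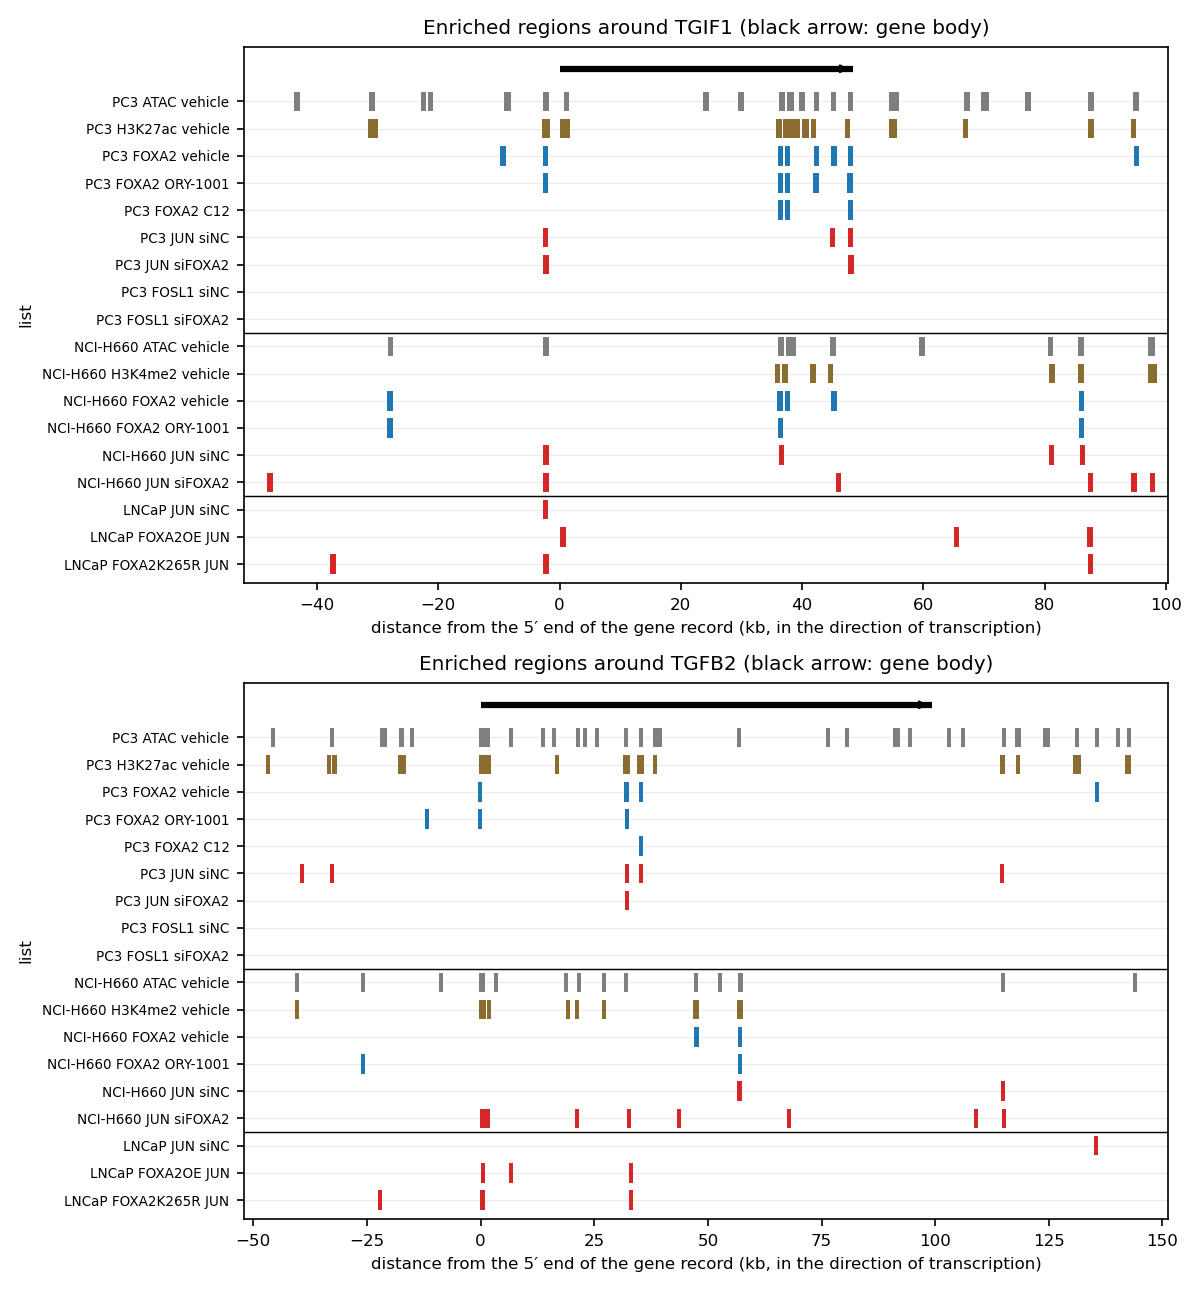
Enriched regions around TGIF1 (top) and TGFB2 (bottom), drawn as in the map of TGFBR2 and SMAD3. The FOXA2 regions of the 2 lines coincided at 3 places of TGIF1 and at none of TGFB2.

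Of the corepressor genes, TGIF1 (chr18:3411606-3459976) had the most FOXA2 regions in NCI-H660 and, with TGFBR2, in PC3. Its highest-scoring region in PC3, chr18:3448997-3449361, lay at an internal promoter 37.6 kb into the gene record with scores of 556 under vehicle, 426 under ORY-1001 and 335 under C12. The same place scored 126 under vehicle in NCI-H660 and was lost there under ORY-1001. A second shared region 36.4 kb into the gene was kept under every inhibitor in both lines (132 under vehicle, 137 under ORY-1001 and 67 under C12 in PC3, and 213 and 169 under vehicle and ORY-1001 in NCI-H660), and the third, at 45.2 kb, was lost under all of them. The place at chr18:3409190-3409471, at -2.3 kb, was called in 13 of the 22 lists. It carried FOXA2 (150) and JUN (354) in PC3 and JUN without FOXA2 in NCI-H660 (220). JUN was also there in LNCaP siNC cells, in which FOXA2 was not mapped. The place held AP-1 letters without forkhead letters.

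SKIL (chr3:170075130-170114623) had 2 FOXA2 regions in PC3 cells against 1 in NCI-H660. The PC3 region not shared with NCI-H660, at 54.3 kb (56), was closer to CLDN11 than to SKIL. The region bound in both lines lay upstream, near the edge of the window and closer to another gene than to SKIL, and scored 117, 123 and 98 under vehicle, ORY-1001 and C12 in PC3, and 721 and 1025 under vehicle and ORY-1001 in NCI-H660. JUN was there in NCI-H660 (370) and not in PC3, in which the place had no accessible region, whereas the NCI-H660 ATAC score was 958. It was thus among the strongest 3.48% of FOXA2 regions in NCI-H660 and in the weaker part of the PC3 list (top 60.5%).

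**Figure D4:**
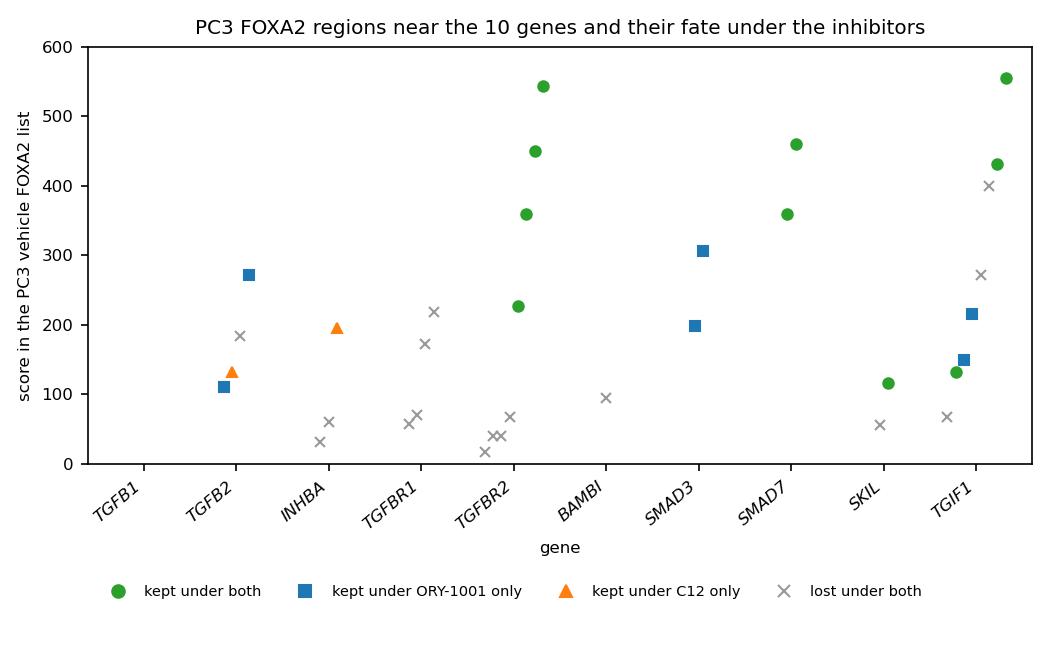
Score of each of the 34 PC3 FOXA2 regions near the 10 genes in the vehicle list, by gene, with the symbol giving whether the region was also called under ORY-1001 and C12. All 16 regions lost under both inhibitors had scores of at most 400, and points within a gene are spread sideways by score for visibility.

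LSD1 inhibition left fewer FOXA2 regions near these genes in PC3, to the degree seen in the whole list. The number went from 34 under vehicle to 19 under ORY-1001 (log2 ratio -0.84, against -0.81 for all regions) and to 12 under C12 (-1.50 against -1.53). When the vehicle list was shortened by score to the length of the treated one, the numbers were 21 against 19 and 12 against 12. The log2 ratios were then -0.14 and 0.00. Equal lengths also remove the change of the whole list, so this step cannot tell list length from loss of binding. ORY-1001 kept 16 of the 34 (47.1%, 31.5 to 63.3) against 36.8% of all PC3 FOXA2 regions, and C12 kept 12 (35.3%, 21.5 to 52.1) against 29.6%. In both cases the interval included the share of the whole list. At equal list lengths the shares were 66.7% for both, against 53% and 61.2%.

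The regions fell into 10 kept under both compounds, 6 under ORY-1001 alone, 2 under C12 alone and 16 under neither. In percent these were 29.4, 17.6, 5.88 and 47.1, where the whole list gave 24, 12.8, 5.63 and 57.5. Every region of SMAD7 was kept under both compounds, and none of TGFBR1 or BAMBI under either. The 2 SMAD3 regions were kept under ORY-1001 and lost under C12. The doses differed (10 µM and 0.5 µM), so the compounds were not compared with each other. Kept regions had had higher scores under vehicle, with a median of 289 against 69 for those lost under ORY-1001 and 360 against 103 for C12, as in the whole list (283 against 112 and 353 against 115). The highest-scoring lost region was the same for both, chr18:3506503-3506934 in an intron of DLGAP1 within the TGIF1 window (400). FOXA2 regions with JUN were kept in 8 of 15 cases under ORY-1001 and 7 of 15 under C12 (53.3% and 46.7%, against 53.7% and 46.5% of the whole list). Those without JUN were kept in 8 of 19 and 5 of 19 (42.1% and 26.3%, against 23.4% and 16.2%). Of the 16 regions that ORY-1001 kept, 10 held forkhead letters, as did 9 of the 18 it lost (56% and 55.2% in the whole list). For C12 the numbers were 11 of 12 kept and 8 of 22 lost (57% and 54.9%).

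Under ORY-1001, 3 of the 19 regions near the genes were not in the vehicle list (15.8%, against 35.6% of all ORY-1001 regions), and under C12 none of the 12 (0% against 14.9%). The 3 lay at TGFB2, at SMAD3 and at the promoter of SKIL (62), and the latter 2 were called in both other FOXA2 ChIPs of vehicle cells. In NCI-H660 the number was 10 under vehicle and 9 under ORY-1001, with 6 of the 10 kept (60%, 31.3 to 83.2, against 68.4%). Of the 9, 3 were new (33.3% against 29.1%), at SKIL, TGFB2 and, with a score of 33, BAMBI. The highest-scoring new one was chr3:170105442-170105645 in an intron of SKIL (270), in which NCI-H660 had no accessible region. That place was also a JUN region in FOXA2OE (238) and FOXA2K265R cells (1062, top 0.425%) and an H3K27ac region in PC3 (344), and in no other list.

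**Figure D5:**
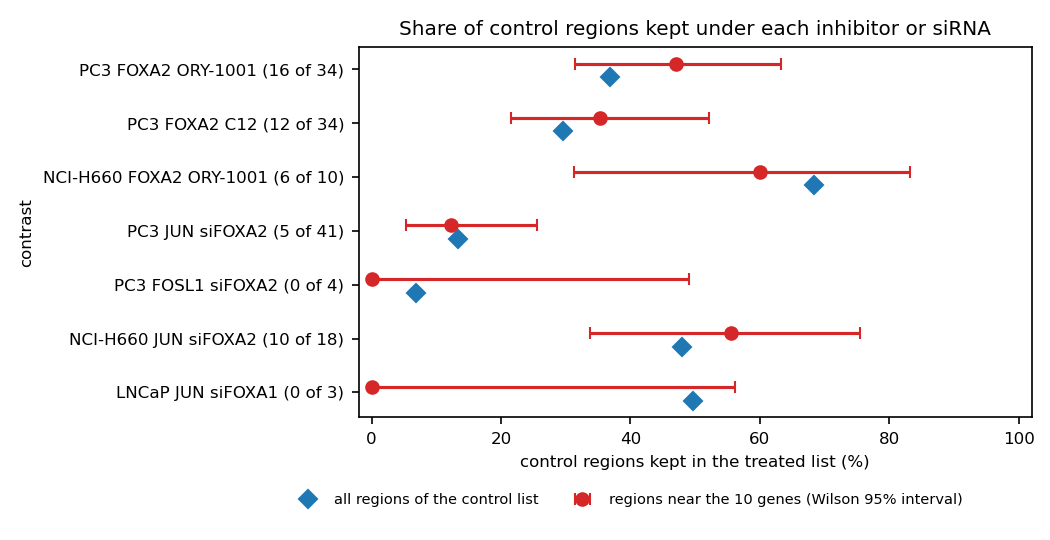
Share of control regions that overlapped a region of the treated list, in percent, for the regions near the 10 genes (red, with Wilson 95% intervals) and for all regions of the control list (blue), in the 7 contrasts. In each contrast the interval of the regions near the genes included the share of the whole list.

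FOXA2 knockdown was followed by opposite changes of the JUN lists in the 2 lines. In PC3 the JUN regions near these genes went from 41 to 5 (log2 ratio -3.04, against -2.55 for the whole list), with fewer at each of the 9 genes that had any and no new region (0% against 21.5%). The 5 that were kept (12.2%, 5.32 to 25.5, against 13.4%) were 2 at TGFBR2, 2 at TGIF1 and 1 at TGFB2. They had had high scores under siNC, with a median of 412 against 161 for the 36 lost, and AP-1 letters were within 100 bp of the centre of all 5 in the siFOXA2 list, where 42.1% of that list had them. None of the 5 held forkhead letters there (14.3% of the list). TGFB1, SMAD3, SMAD7, TGFBR1, INHBA and SKIL were left without JUN, and the highest-scoring region lost was chr15:67420273-67420634 at an internal SMAD3 promoter (591, top 5.97%). JUN regions that overlapped FOXA2 were kept in 4 of 15 cases and the others in 1 of 26, where the whole list gave 18.3% and 9.42%. With the 4081 highest-scoring regions of each list, the numbers were 10 and 5 (log2 ratio -1.0), and 4 of the 10 were kept (40% against 47.4%). FOSL1 in PC3 went from 4 regions to 1, with none of the 4 kept (0%, 0 to 49, against 6.9%), and the remaining region, in a coding exon of TGFBR2, was new with a score of 22.

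In NCI-H660 the JUN regions near the genes went from 18 under siNC to 40 under siFOXA2 (log2 ratio 1.15, against 1.69 for the whole list), with more at 9 of the 10 genes and fewer at TGFB1. This increase came from low-scoring regions. Counting only regions that scored 50 or more gave 10 and 12 (log2 ratio 0.26). With both lists at 18401 regions by score the numbers were 18 and 12 (log2 ratio -0.58). Equal lengths remove the rise of the whole list, so this ratio cannot tell whether JUN binding rose or fell. The 30 new regions (75% of the 40, against 85.2% in the whole list) had scores from 16 to 72 with a median of 32. Of these, 10 were accessible, 11 were in no other list, 1 held forkhead letters and none AP-1 letters. Such letters were rare in the whole siFOXA2 list too, at 8.22% for forkhead and 4.98% for AP-1. Over all 40 regions 20 (50%) were accessible, against 31.5% of the siFOXA2 list. Of the 18 control regions 10 were kept (55.6%, 33.7 to 75.4, against 48%). The highest was the region near WAC at -48.8 kb in the BAMBI window (926 under siNC and 441 under siFOXA2). The highest-scoring lost region, chr15:67316729-67317037 upstream of SMAD3 (149), held AP-1 letters and was also a JUN region in PC3. A siFOXA2 JUN region, chr15:67316314-67316619 (33), lay beside it without overlap and counted as new. The highest-scoring new one, chr1:218518592-218519679, covered the TGFB2 promoter (72).

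In LNCaP cells JUN was scarce under siNC, with 3 regions near the genes (13.4% of all genes had one). They lay at TGIF1 at -2.3 kb, in the SMAD3 intron at 43.3 kb and downstream of TGFB2 at 135.5 kb. All 3 held AP-1 letters, as did 25.4% of the list. All 3 overlapped PC3 regions, the first of JUN and FOXA2, the second of JUN and FOSL1 and the third of FOXA2. The second was also a FOXA2 region in both other FOXA2 ChIPs of PC3 (103 and 186). None was called under siFOXA1 (0 of 3, 0 to 56.1%, against 49.6% kept in the whole list). The siFOXA1 list had no region near any of the 10 genes, where 8.65% of all genes had one.

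FOXA2OE cells had 25 JUN regions near 8 of the 10 genes (79.5% of all genes had one) and FOXA2K265R cells 32 near 9 (85.1%). The most were at SKIL, with 7 and 6. Of the 25, 8 overlapped a FOXA2K265R region (32% against 37%), and of the 32, 8 overlapped a FOXA2OE region (25% against 18.7%). The shared ones included the promoters of TGFB2 (58 and 59), TGFBR1 (43 and 100), TGFBR2 (70 and 202) and SKIL (226 and 409). AP-1 letters were in none of the 25 and in 3 of the 32 (2.38% and 4.08% of the whole lists). INHBA had 4 JUN regions in FOXA2K265R cells, 2 of them at the promoter, and none in FOXA2OE cells. The FOXA2 list of FOXA2OE cells had no region near any of the genes among its 2500 (6.04% of all genes had one). The LNCaP JUN lists carry identifiers from different processing folders except for siNC and siFOXA1, so between siNC, FOXA2OE and FOXA2K265R the folder and the cells cannot be told apart.

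Among 36 other genes of the pathway, 27 had a FOXA2 region within 50 kb in PC3 (75%, against 54.1% of all protein-coding genes) and 13 in NCI-H660 (36.1% against 37.6%). JUN was near 31 in PC3 (86.1% against 62.8%) and near 24 in NCI-H660 (66.7% against 66.3%). By role, FOXA2 in PC3 was near 8 of 13 ligands and binding proteins, 6 of 8 receptors, 9 of 10 SMADs and regulators and 4 of 5 target genes. In NCI-H660 the counts were 4, 2, 5 and 2. The window lengths of the 36 genes are not given here, and a longer window by itself raises such counts and shares. LTBP1, which encodes a protein that tethers latent TGF-β in the matrix, was picked out after its values were seen. It had 19 FOXA2, 19 JUN, 54 H3K27ac and 62 accessible regions in PC3. NCI-H660 had neither factor there except for 1 FOXA2 region under ORY-1001. ZEB1, a repressor of epithelial genes that TGF-β induces, had more FOXA2 regions in NCI-H660, 5 against 2 in PC3.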

How the data were processed

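Transcription factors and histone marks were mapped by ChIP-seq, and open chromatin by ATAC-seq, in PC3, NCI-H660 and LNCaP cells. Per the submitters' processing notes, reads were aligned with BWA 0.7.17-r1188 to hg19 and regions called with MACS2 2.1.4. The authors deposited 1 list of intervals per sample, 20 of them with a whole-number score, which is taken as the caller's −log10 q-value times 10, an inference from its range. Input libraries and pooling are not given in the sources used here. LNCaP siNC JUN and FOXA2OE FOXA2 had no score.

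Windows were GENCODE 44 (hg19 version) gene bodies extended by 50 kb. A region was kept or shared if it overlapped by at least 1 bp. Promoters were 1 kb on either side of a protein-coding transcript start, and distances run from the 5′ end of the gene record to the region centre. Letters were searched in 200 bp. Overlaps were checked on simulated data. Python 3.11.15, pandas 2.3.3, scipy 1.17.1 and pysam 0.24.0 were used. Named regions were the highest-scoring FOXA2 region per gene, the highest-scoring kept, lost and new region per contrast, and those bound in both lines, with further regions named after their values were seen. The genes and lists were chosen with earlier results of these data known. Read depth was not known, and each condition had 1 list. Some items of the gene lists and sequences are not reported here.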

Additional observations from a re-analysis of the deposited data

Results flagged for a closer look

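JUN regions near the 10 genes moved in opposite directions after siFOXA2 in the 2 lines. The log2 ratio of siFOXA2 over siNC was -3.04 in PC3, where 9 genes had fewer regions, and 1.15 in NCI-H660, where 9 genes had more. With 1 list per arm the difference was not tested. At equal list lengths both ratios were below 0 (-1.0 and -0.58). Equal lengths also remove the change of the whole list, so these ratios do not show that JUN fell in both lines. Unequal list lengths, of 23890 and 4081 in PC3 and of 18401 and 59452 in NCI-H660 went with the result.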

How the results depend on the processing

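No paired analysis was possible because each group compared held 1 list. Apart from 1 value that changed sign, 74 were recomputed under alternative settings, of which 58 stayed within the interval of the reported share or within 1.5 times the reported number. Of the 58, 14 came from leaving out regions found in at least 17 lists, which could not change a value near these genes. With 10 kb in place of 50 kb on either side, the number of regions fell from 10 to 6 for NCI-H660 FOXA2, from 25 to 15 for FOXA2OE JUN and from 32 to 18 for FOXA2K265R JUN. With a score of at least 50, FOXA2K265R JUN had 16. In place of the 34 vehicle PC3 FOXA2 regions, the other FOXA2 ChIPs had 86 and 72. Counting only regions whose nearest protein-coding gene was 1 of the 10 left 26 of the 34 in PC3. In NCI-H660 it left 7 of the 10 FOXA2 regions. Requiring 50% of both regions to overlap gave 10% for NCI-H660 FOXA2 regions with JUN and 33.3% for NCI-H660 JUN kept after siFOXA2. Equal numbers of the highest-scoring regions raised the kept share to 66.7% for ORY-1001 and 66.7% for C12 in PC3 and to 40% for PC3 JUN after siFOXA2. That setting could not be run for LNCaP, whose siNC list had no score.

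Ratios of region numbers were recomputed in settings chosen after seeing the data. At equal list lengths the log2 ratio was -0.14 for ORY-1001 and 0.00 for C12 in PC3, -1.0 for PC3 JUN, 0.00 for FOSL1 and, reversed, -0.58 for NCI-H660 JUN, which was 0.26 with a score of at least 50. At that score FOSL1 had 3 regions under siNC and none under siFOXA2, which gives no ratio. Equal lengths remove the change of the whole list, so those ratios cannot tell list length from a change of binding. Other causes were not tested. Regions found in at least 17 of the 22 lists were absent near these genes, so leaving them out changed no value near the genes.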
